A study of Mus musculus with 15 samples.

Results

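Lgr5, Ephb2, Ephb3, Ascl2, Sp5, Sox9 and Prox1 are Wnt target genes best known from the gut and the embryo, and their levels were followed here in cultured blood progenitors that carry graded losses of Apc. Members were taken as every probe set of the array whose annotated symbol is 1 of these 7 names. This gave 13 of the 45101 probe sets, for 6 of the 7 genes: 3 each for Ascl2, Prox1 and Sox9, 2 for Lgr5, and 1 each for Ephb3 and Sp5. The annotation used here listed no probe set under Ephb2, which has therefore no value below. The comparison asks whether genes of the gut and embryonic Wnt programme are switched on in blood progenitors once Apc is lost.

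In cells without a Wnt signal, Apc holds together the proteins that hand beta-catenin over to degradation. When Apc is lost, beta-catenin accumulates, enters the nucleus and binds TCF/LEF factors at target genes, but which targets respond depends on the cell type. In the crypts of the intestine the pathway maintains Lgr5, the R-spondin receptor that marks the stem cells of the crypt base, together with Ascl2, Sox9 and the Eph receptors that sort cells along the crypt. In the early embryo it drives Sp5 at the primitive streak.

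Each of 15 arrays measured 1 sample of bone marrow LSK cells of C57BL6 mice, a population enriched for blood stem and progenitor cells. All samples, the controls included, received a retrovirus that carries Cre and GFP ex vivo, were cultured in Stemspan medium with the cytokines mFlt3L, mTpo and mSCF, and were sorted for GFP. The 3 mutant groups of 3 arrays each were 15lox/15lox (both Apc alleles floxed, and so open to deletion by Cre), 15lox/1638N and 15lox/1572T, in which a floxed allele stands beside a hypomorphic allele that every cell of the animal carries. The control group was wt/wt (wild type), of which arrays 4 to 6 were the main control, so that 12 arrays entered each test. The sources used here give neither the age of the mice nor whether the replicates of a group are separate animals, so p-values measure the spread between these samples, which may be technical.

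The targeted gene read lowest in 15lox/15lox. The Apc probe set 1420956_at read 5.58, 6.10 and 5.69 in 15lox/15lox, 8.47, 8.67 and 8.52 in 15lox/1638N and 8.97, 8.86 and 8.64 in 15lox/1572T, against 9.72, 9.61 and 9.93 in wild type (log2 units, as all levels below). The drop passed the test described below in 15lox/15lox and 15lox/1638N but not in 15lox/1572T (adjusted p = 0.103), where no Apc probe set passed, and another Apc probe set (1435543_at) was 0.77 higher in 15lox/15lox (adjusted p = 0.0133). Blood progenitor markers were high on all 12 arrays, with Cd34 at a mean of 13.46 and Flt3 at 12.40, while Ly6a, which encodes Sca1, is not listed in the annotation used here. Array medians lay between 6.65 and 6.84. By sex-linked transcripts, 2 of 3 15lox/15lox arrays, 1 of 3 15lox/1638N arrays, 1 of 3 15lox/1572T arrays and 0 of the 3 wild-type arrays were of female type. Wild-type arrays 1 to 3 had means within 0.05 of those of arrays 4 to 6 at 96.7% of probe sets and identical values to each other at 18.2%. They may not be independent measurements, so they entered only alternative fits, and passes gained by adding them support nothing.

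Of the 13 probe sets, Sp5 rose in 15lox/15lox cells, 2.42-fold over wild type, and 1 of the 2 Lgr5 probe sets rose in 15lox/1638N cells, 1.52-fold. Both calls depended on single arrays. With 1 array left out, the Sp5 call held in 3 of 12 fits and the Lgr5 call in 5 of 12. No probe set of Ascl2, Prox1, Sox9 or Ephb3 passed the test in any comparison with wild type, and none of the 13 did so in 15lox/1572T cells. In counts, 1 of 13 passed in 15lox/15lox, where 1.49% of all probe sets did, 1 of 13 in 15lox/1638N, where 1.38% did, and 0 of 13 in 15lox/1572T, where 0.0288% did. At an unadjusted p under 0.05 the counts were 3, 1 and 0 of 13, against 10.2%, 16% and 6.84% of all probe sets. The median log2 fold change of the 13 was -0.02 in 15lox/15lox, 0.06 in 15lox/1638N and 0.05 in 15lox/1572T, and that of all probe sets -0.03, 0.00 and -0.01. A call means an adjusted p under 0.05 in limma over all 45101 probe sets.

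**Figure D1:**
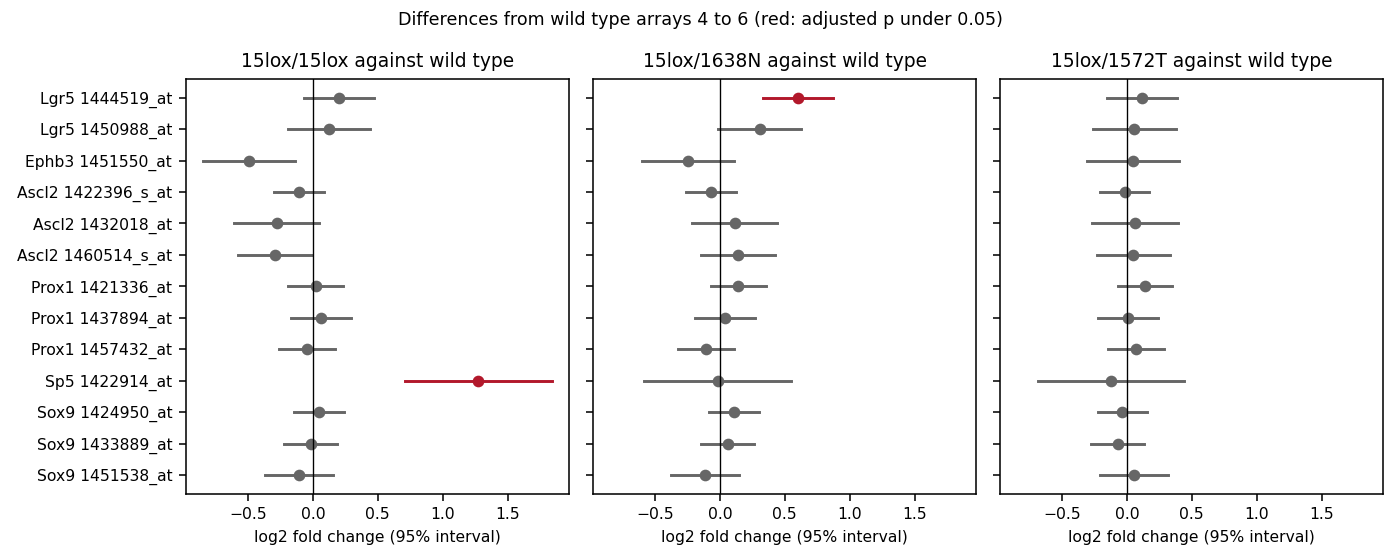
Log2 fold change of each member probe set (points, with 95% intervals) in 15lox/15lox, 15lox/1638N and 15lox/1572T against wild-type arrays 4 to 6; red marks an adjusted p under 0.05. Sp5 stands at 1.28 in the 15lox/15lox panel and the Lgr5 probe set 1444519_at at 0.60 in the 15lox/1638N panel, and the points of the 15lox/1572T panel lie between -0.12 and 0.14.

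All members read low. Each of the 13 probe sets lay below the 50th percentile of all probe sets in its mean over the 12 arrays, from percentile 1.40 for Prox1 1421336_at to 49.4 for Ascl2 1460514_s_at, with Sp5 at 45.4. As a yardstick, 22 genes restricted to eye, pituitary, pancreas, kidney or skin, each read on its brightest probe set, had means of 4.03 to 9.80. Their median was 5.43, and 12 of the 13 member probe sets lay inside that range and 1 below it. The range reaches nearly to the upper quartile of the arrays (9.81 or more), so lying inside it says little. Of the 13, 0 lay above 7.25, the upper decile of the 22 genes. Probe sets differ in their own background, so this ranking sets no order among genes and is no detection call. In bulk samples a change in the share of cells that express a gene and a change in RNA per cell cannot be told apart.

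**Figure D2:**
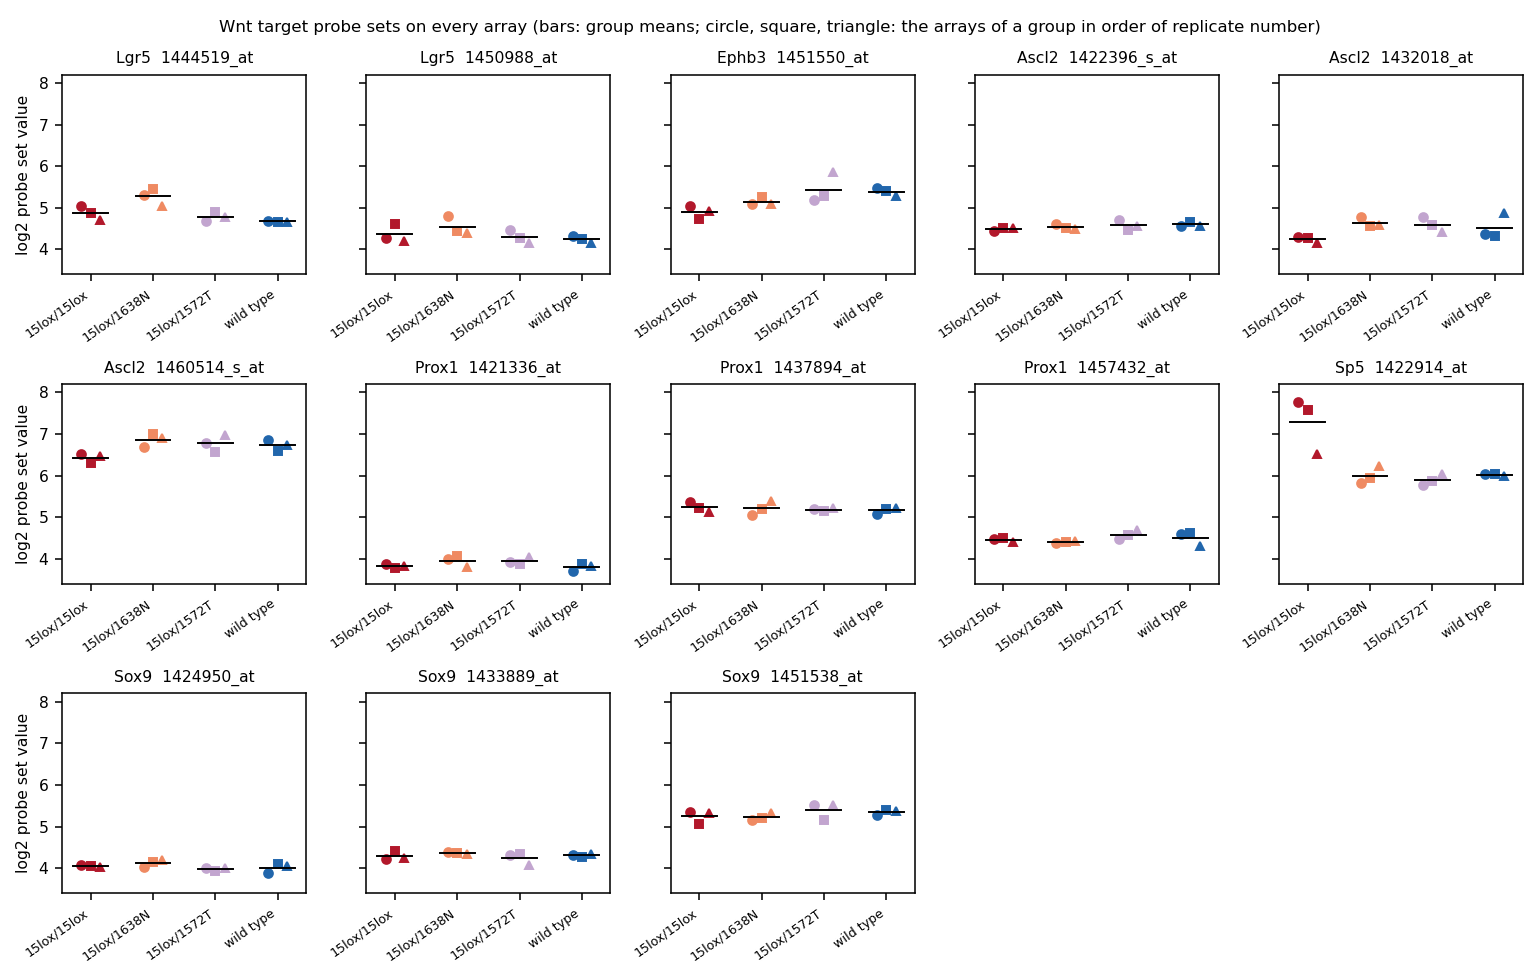
Log2 value of each of the 13 member probe sets on every array, by group in the order 15lox/15lox, 15lox/1638N, 15lox/1572T and wild type (arrays 4 to 6); bars are group means and marker shapes give the replicate number. The 3 15lox/15lox arrays of Sp5 (7.78, 7.57 and 6.53) lie above its 9 other points, and the panels of Prox1 and Sox9 are nearly flat.

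Among the receptors, Lgr5 was read by 2 probe sets. Probe set 1444519_at read 5.03, 4.88 and 4.70 in 15lox/15lox, 5.32, 5.46 and 5.05 in 15lox/1638N and 4.68, 4.90 and 4.78 in 15lox/1572T, against 4.68, 4.67 and 4.66 in wild type. The 15lox/1638N arrays were the 3 highest, and the 15lox/15lox arrays too lay above all wild-type arrays, by as little as 0.01 for the lowest. The difference from wild type was 0.60 ± 0.12 in 15lox/1638N (SE; 95% interval 0.33 to 0.87; adjusted p = 0.0416) and 0.20 in 15lox/15lox (interval -0.07 to 0.47; adjusted p = 0.656). The wild-type arrays spread over only 0.02 on this probe set. The rise in 15lox/1638N thus exceeded the spread between arrays, but its adjusted p ranged up to 0.173 and the call was lost when any of the 3 wild-type arrays, 15lox/1638N array 1 or 2, or 15lox/1572T array 1 or 2 was left out.

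The second Lgr5 probe set, 1450988_at, read 4.80, 4.45 and 4.39 in 15lox/1638N cells, against 4.32, 4.25 and 4.15 in wild type. These groups did not overlap either, but the difference of 0.31 missed the threshold (interval -0.01 to 0.63; adjusted p = 0.331). The same probe set read 4.27, 4.62 and 4.20 in 15lox/15lox, a range that overlaps wild type. The order of the Lgr5 group means on 1444519_at was 15lox/1638N, 15lox/15lox, 15lox/1572T and wild type, and of the 3 neighbouring pairs in that order none differed past the threshold (15lox/15lox minus 15lox/1638N, -0.40, adjusted p = 0.424).

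Ephb3, a receptor tyrosine kinase for ephrin-B ligands that keeps Paneth cells at the crypt base, pointed the other way. Its probe set 1451550_at read 5.04, 4.73 and 4.93 in 15lox/15lox, 5.08, 5.26 and 5.10 in 15lox/1638N and 5.18, 5.27 and 5.86 in 15lox/1572T, against 5.48, 5.40 and 5.29 in wild type. Every 15lox/15lox and every 15lox/1638N array lay below every wild-type array, while 15lox/1572T overlapped. The difference was -0.49 in 15lox/15lox (interval -0.84 to -0.13; adjusted p = 0.272), -0.24 in 15lox/1638N (adjusted p = 0.496) and 0.05 in 15lox/1572T (adjusted p = 0.977). The 15lox/15lox value passed the threshold with all 6 wild-type arrays as control (-0.50, adjusted p = 0.0492), of which arrays 1 to 3 hold the doubted values described above, and without 15lox/1572T array 3, the highest of the 12 (adjusted p = 0.0444). Over its alternative settings the adjusted p reached 0.735.

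Among the transcription factors, Sp5 stood apart. Sp5 encodes a zinc finger protein of the Sp family that acts in the Wnt programme of the primitive streak. Its single probe set, 1422914_at, read 7.78, 7.57 and 6.53 in 15lox/15lox, 5.83, 5.95 and 6.23 in 15lox/1638N and 5.77, 5.88 and 6.03 in 15lox/1572T, against 6.03, 6.04 and 5.98 in wild type. The 15lox/15lox arrays were the highest 3 of 12 and spread widely, with array 3 more than 1 log2 unit below the other two. The other mutant groups overlapped wild type.

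The 15lox/15lox mean was 7.29 ± 0.67 and that of wild type 6.02 ± 0.03 (SD, n = 3 each), at percentiles 54.4 and 42.3 of all probe sets in their groups. The difference was 1.28 ± 0.26 (SE; interval 0.71 to 1.84; adjusted p = 0.0342). In 15lox/1638N it was -0.02 (interval -0.58 to 0.55; adjusted p = 0.984) and in 15lox/1572T -0.12 (interval -0.69 to 0.44; adjusted p = 0.962). Across 23 alternative settings the 15lox/15lox difference stayed between 1.03 and 1.66, but it passed the threshold in only 11. Of these 11, 1 is a filter on the highest group mean, which Sp5 passed only through 15lox/15lox itself, and 2 use wild-type arrays 1 to 3, which leaves 8 passes in 19 settings. The call was lost (adjusted p from 0.0511 to 0.155) without wild-type array 4, 5 or 6, 15lox/15lox array 1 or 2, 15lox/1572T array 1 or 2, or 15lox/1638N array 1 or 2. Without 15lox/15lox array 3 the difference was 1.66 (adjusted p = 0.000178). With female or male type as a covariate it was 1.40 (adjusted p = 0.0898).

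The bases before the Sp5 start site are shown beside those of Ascl2 and Ephb3, since Sp5 alone among the 5 members with a window holds letters that TCF/LEF factors are known to bind. The search covered the 4 words that begin with CTTTG and end in AA, AT, TA or TT, on both strands, and counted overlapping matches separately. Windows were 300 bases long (250 before to 50 after the start, from RefSeq, GRCm38.p6). Capitals mark the matches, and the 250 bases before each start are given 5′ to 3′ on the gene's strand.
Sp5 (chr2:70474673-70474922, plus strand): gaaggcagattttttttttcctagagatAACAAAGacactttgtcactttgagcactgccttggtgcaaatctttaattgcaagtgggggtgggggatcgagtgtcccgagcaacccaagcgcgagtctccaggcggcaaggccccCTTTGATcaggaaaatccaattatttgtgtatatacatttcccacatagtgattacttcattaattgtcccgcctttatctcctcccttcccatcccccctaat
Ascl2 (chr7:142969265-142969514, minus strand): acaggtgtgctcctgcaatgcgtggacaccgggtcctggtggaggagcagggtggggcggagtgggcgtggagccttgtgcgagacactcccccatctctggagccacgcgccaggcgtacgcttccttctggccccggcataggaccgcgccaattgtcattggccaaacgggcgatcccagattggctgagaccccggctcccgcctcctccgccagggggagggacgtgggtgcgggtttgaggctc
Ephb3 (chr16:21204545-21204794, plus strand): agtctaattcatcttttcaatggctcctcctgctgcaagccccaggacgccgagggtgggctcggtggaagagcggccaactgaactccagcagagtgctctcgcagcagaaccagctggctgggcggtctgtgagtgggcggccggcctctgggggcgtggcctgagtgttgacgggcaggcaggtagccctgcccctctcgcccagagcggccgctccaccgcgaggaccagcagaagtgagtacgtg
In Sp5, AACAAAG (the reverse complement of CTTTGTT) starts 222 bases and CTTTGAT 104 bases before the start site. Windows were found for 5 of the 7 members, and those of Ephb2, Ephb3, Ascl2 and Prox1 hold none of the 4 words. Of all 32851 windows, 16.9% hold at least 1 and 1.94% at least 2, overlapping matches included. Among genes that rose, the Axin2 window holds none, and 1 of 4 Lef1 windows holds a match. A match describes the letters only and is no evidence of binding.

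Ascl2 encodes a basic helix-loop-helix factor that maintains the stem cell programme of the crypt. Its brightest probe set, 1460514_s_at, read 6.53, 6.30 and 6.47 in 15lox/15lox, 6.697, 7.003 and 6.893 in 15lox/1638N and 6.78, 6.56 and 6.98 in 15lox/1572T, against 6.85, 6.59 and 6.74 in wild type. The 15lox/15lox arrays were the 3 lowest. On all 3 Ascl2 probe sets every 15lox/15lox array lay below every wild-type array, by -0.11 (1422396_s_at), -0.28 (1432018_at) and -0.29 (1460514_s_at) on average, and none of these differences passed the test (adjusted p = 0.749, 0.591 and 0.466). The 3 probe sets read the same gene and are not separate observations. Against wild type, the 15lox/1638N differences were -0.07, 0.11 and 0.14 on the same probe sets.

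Sox9 encodes an HMG-box factor of crypt base and Paneth cells, and Prox1 a homeobox factor of lymphatic endothelium that is also a Wnt target in intestinal tumours. Their probe sets varied little. The 3 Sox9 probe sets spanned 0.32 to 0.46 over the 12 arrays and the 3 Prox1 probe sets 0.34 to 0.37, and their group means differed from wild type by at most 0.14 in either direction. The brightest Sox9 probe set, 1451538_at, read 5.34, 5.07 and 5.32 in 15lox/15lox, against 5.28, 5.40 and 5.37 in wild type, a difference of -0.11 (interval -0.37 to 0.15; adjusted p = 0.842). The brightest Prox1 probe set, 1437894_at, read 5.37, 5.21 and 5.12 in 15lox/15lox, against 5.08, 5.19 and 5.23 in wild type, a difference of 0.06 (interval -0.17 to 0.29; adjusted p = 0.907). Both groups overlapped on both probe sets.

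A missed threshold does not show that nothing changed. Over the probe sets that did not pass, the upper ends of the 95% intervals reached 0.47 in 15lox/15lox (1.38-fold), 0.63 in 15lox/1638N (1.54-fold) and 0.44 in 15lox/1572T (1.36-fold) against wild type. The lower ends reached -0.84, -0.60 and -0.69. Changes within these bounds may not have been seen at 3 arrays a group.

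By plain order of the arrays, 15lox/15lox lay wholly above wild type at 2 of 13 member probe sets (Sp5 and Lgr5 1444519_at) and wholly below at 4 (Ephb3 and the 3 of Ascl2), against 6.92% and 10.4% of all probe sets. In 15lox/1638N these counts were 3 above (both of Lgr5, and Sox9 1433889_at by 0.06 on average) and 1 below (Ephb3), against 12.3% and 14.2%. In 15lox/1572T they were 1 above (Prox1 1421336_at, by 0.14) and 0 below, against 4.74% and 7.88%. These shares set the 13 beside all probe sets and are no test of the members as a group.

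Between the mutant genotypes, Sp5 again carried the only call. It was 1.40 higher in 15lox/15lox than in 15lox/1572T (interval 0.83 to 1.96; 2.63-fold; adjusted p = 0.0246), where 1% of all probe sets passed, and this call was lost without wild-type array 4, 15lox/15lox array 1 or 2, or 15lox/1572T array 1 or 2 (adjusted p from 0.0504 to 0.114). With the replicate number as a block, on the 9 mutant arrays, it was lost as well (1.40, adjusted p = 0.172). Against 15lox/1638N the difference was 1.29 (interval 0.73 to 1.86) with an adjusted p of 0.0995, where 0.186% of all probe sets passed, and it passed without 15lox/15lox array 3 (1.67, adjusted p = 0.00199). Between 15lox/1638N and 15lox/1572T 0 of 13 passed, where 0.171% of all probe sets did; the largest difference was that of Lgr5 1444519_at, 0.49 (adjusted p = 0.306). At an unadjusted p under 0.05 the 3 contrasts held 4, 4 and 1 of 13, against 8.67%, 8.03% and 7.72% of all probe sets. The Sp5 group means ran 15lox/15lox, wild type, 15lox/1638N and 15lox/1572T, and the last 3 lay within 0.12 of each other.

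Genes with patterns like those of Sp5 and Lgr5 were sought by the root mean square difference over the 12 arrays, after each probe set was centred on its wild-type mean. Nearest to Sp5, whose own centred values have a root mean square of 0.70, were Tmem45a, a transmembrane protein (0.15), Prph, an intermediate filament of peripheral neurons (0.24), and Fbln1, an extracellular matrix protein (0.25). Tmem45a read 6.65, 6.46 and 5.63 in 15lox/15lox, against 4.97, 4.96 and 4.94 in wild type, and 15lox/15lox array 3 was the lowest of that group, as for Sp5. Nearest to Lgr5 1444519_at, with a root mean square of 0.34, were E2f8 (0.12), Pclaf (0.13) and Nsd2 (0.13), which encode an E2F family repressor, a PCNA-binding factor and a histone methyltransferase. None of these 3 passed the test in 15lox/1638N, with differences of 0.48, 0.56 and 0.47 (lowest adjusted p = 0.0889). These genes were picked from all probe sets with 1 symbol for likeness to the members, so their own values support nothing further.

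**Figure D3:**
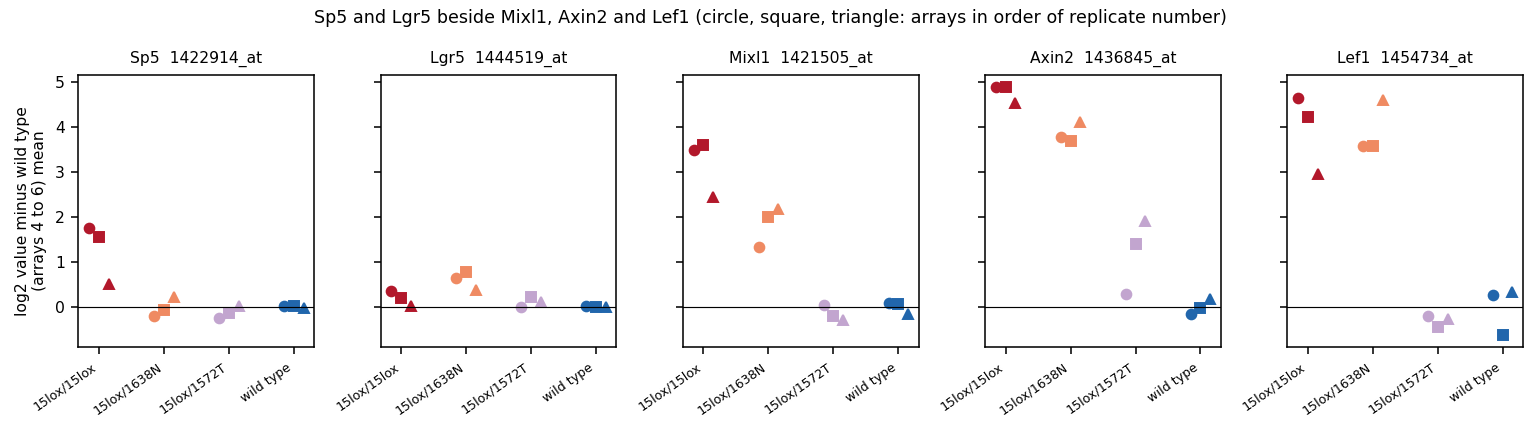
Log2 value minus the wild-type mean on every array for Sp5, Lgr5 1444519_at, Mixl1, Axin2 and Lef1, in the order 15lox/15lox, 15lox/1638N, 15lox/1572T and wild type (arrays 4 to 6). Sp5 leaves the baseline in 15lox/15lox, Lgr5 most in 15lox/1638N and by under 1 unit, and Mixl1, Axin2 and Lef1 in both 15lox/15lox and 15lox/1638N; 15lox/15lox array 3 is the lowest of its group for all 5.

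General feedback targets of the pathway are given beside the members. Of 16 measured genes of a Wnt feedback list, 10 rose and 0 fell in 15lox/15lox, 5 rose and 0 fell in 15lox/1638N and 0 changed in 15lox/1572T, where 2.11%, 2.04% and 0.0495% of all genes passed in either direction. In 15lox/1572T 1 of the 16 had an unadjusted p under 0.05, as did 6.84% of all probe sets. Axin2, a scaffold of the same destruction complex, read 12.28, 12.29 and 11.94 in 15lox/15lox, 11.17, 11.10 and 11.51 in 15lox/1638N and 7.69, 8.80 and 9.32 in 15lox/1572T, against 7.26, 7.38 and 7.57 in wild type. The 15lox/15lox difference was 4.77 (adjusted p = 1.9e-05), and that of 15lox/1572T, 1.20, did not pass (adjusted p = 0.447). The second Axin2 probe set rose by 1.11 in 15lox/15lox (adjusted p = 0.0240) and differed by 0.82 in 15lox/1638N without passing (adjusted p = 0.0934). Lef1, a nuclear partner of beta-catenin, was up by 3.94 in 15lox/15lox and 3.92 in 15lox/1638N (adjusted p = 0.000459 and 0.00119). These Lef1 calls rest on 1 of 2 probe sets, and the other differed by 0.37 and 0.16 without passing (adjusted p = 0.267 and 0.562).

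A wider list of 30 gut stem cell and crypt genes, without the members, held 27 measured genes. Of these 7 rose and 0 fell in 15lox/15lox, 4 rose and 0 fell in 15lox/1638N and 0 changed in 15lox/1572T, with median log2 fold changes of 0.19, 0.23 and 0.09 (all genes, -0.05, -0.03 and -0.03). At an unadjusted p under 0.05 the counts were 11, 10 and 0 of 27, against 10.2%, 16% and 6.84% of all probe sets. Rnf43, Znrf3 and Tnfrsf19 stand in this list and in the feedback list. Those that rose most in 15lox/15lox were Fstl1, a secreted glycoprotein (3.55), Tnfrsf19, a TNF receptor family member (2.39), Pdgfa, a growth factor (2.33), and Etv5, an ETS factor (1.38). Zfp703 (1.29), Znrf3, the E3 ligase that removes Frizzled receptors (1.03), and Ets2 (0.44, named after its value was seen) made up the 7. In 15lox/1638N they were Fstl1 (1.77), Zfp703 (1.09), Etv5 (1.02) and Znrf3 (0.91).

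Fstl1 read 10.29, 10.36 and 10.50 in 15lox/15lox, 8.51, 7.87 and 9.43 in 15lox/1638N and 6.62, 7.65 and 6.57 in 15lox/1572T, against 7.11, 6.62 and 6.76 in wild type, and its second probe set rose by 3.43 in 15lox/15lox. The calls for Tnfrsf19, Zfp703 and Znrf3 rest on 1 probe set each, since their other probe sets differed from wild type by -0.21 to 0.15 and did not pass. Those for Etv5 rest on 1 of 3, with the other two higher in 15lox/15lox by 1.20 or more without passing (adjusted p = 0.120 and 0.0703), and 1 of the 3 Ets2 probe sets differed by -0.01. The second Fstl1 probe set missed the threshold in 15lox/1638N (1.56, adjusted p = 0.0519). In 15lox/15lox the calls of Fstl1, Tnfrsf19, Etv5 and Zfp703 held with each of the 12 arrays left out. Those of Pdgfa and Ets2 were lost when any of the 3 wild-type arrays or 15lox/15lox array 2 was left out, Ets2 also for 15lox/15lox array 1, and that of Znrf3 for wild-type array 5 or 6 or 15lox/15lox array 2. With wild-type array 5 or 6 left out, the count of 7 became 4. The 4 of 15lox/1638N became 0 when wild-type array 4 was left out, 1 for wild-type array 5, wild-type array 6, 15lox/1638N array 1 or 15lox/1638N array 3, and 2 for 15lox/15lox array 1, 15lox/1572T array 1 or 15lox/1638N array 2. With female or male type as a covariate the counts were 4 and 1. The 15lox/1638N count was also 1 with the replicate number as a block, 2 with the mean of a gene's probe sets and 7 with all 6 wild-type arrays.

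Of 28 measured embryonic Wnt targets, 2 rose and 0 fell in 15lox/15lox, 1 rose and 0 fell in 15lox/1638N and 0 changed in 15lox/1572T. Of all genes 2.11%, 2.04% and 0.0495% passed. The medians of the 28 were -0.07, 0.01 and -0.02. At an unadjusted p under 0.05 stood 7, 3 and 1 of them, against 10.2%, 16% and 6.84% of all probe sets. Mixl1, a homeobox factor of the primitive streak, read 9.65, 9.77 and 8.61 in 15lox/15lox, 7.49, 8.17 and 8.34 in 15lox/1638N and 6.21, 5.97 and 5.87 in 15lox/1572T, against 6.26, 6.23 and 6.01 in wild type. It was up by 3.17 in 15lox/15lox (adjusted p = 0.000163) and by 1.83 in 15lox/1638N (adjusted p = 0.0132), and the second of these calls was lost when 15lox/1638N array 2 or any of the 3 wild-type arrays was left out. Dkk1, a secreted Wnt inhibitor, was up by 1.64 in 15lox/15lox on 1 of its 2 probe sets (adjusted p = 0.0124), a call lost without wild-type array 4 or 6. Dkk1 stands in the feedback list too. Sp5 and Mixl1, both genes of the primitive streak, thus rose together in 15lox/15lox, whereas in 15lox/1638N Mixl1 rose and Sp5 differed by -0.02.

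**Figure D4:**
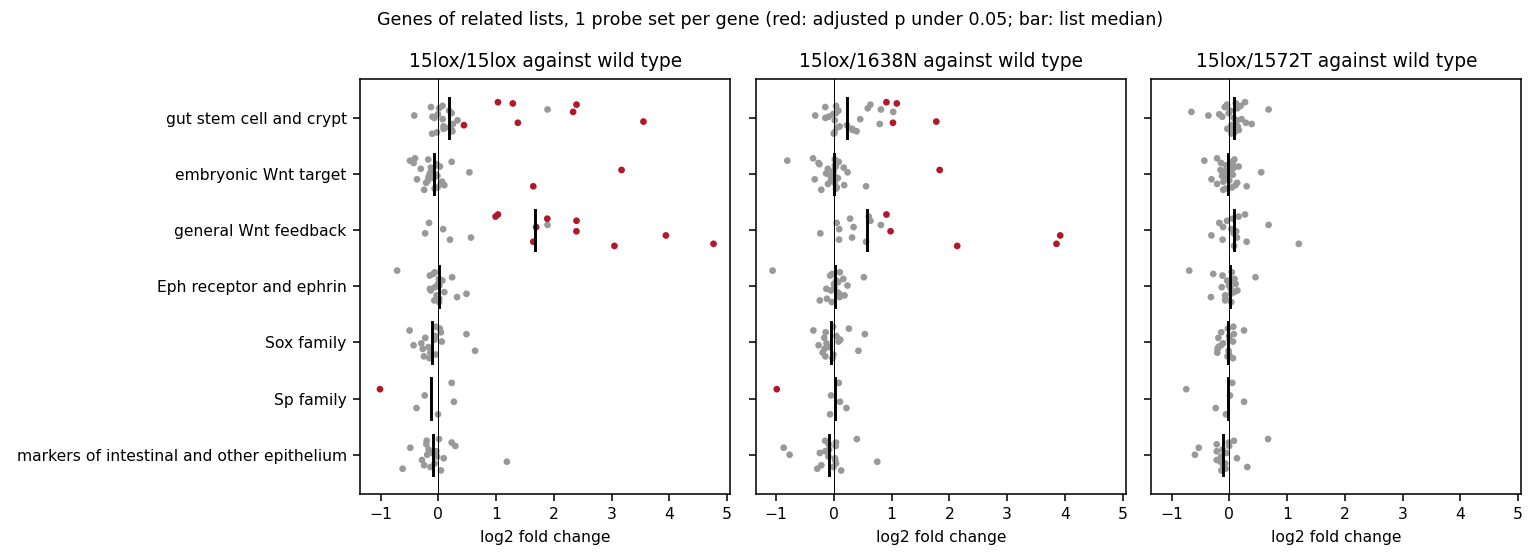
Log2 fold change of every measured gene of 7 lists (points; 1 probe set per gene) in 15lox/15lox, 15lox/1638N and 15lox/1572T against wild-type arrays 4 to 6; red marks an adjusted p under 0.05 and bars are list medians. The median of the Wnt feedback list is 1.67 in 15lox/15lox and 0.58 in 15lox/1638N, while the medians of the other 6 lists lie between -0.12 and 0.23 in all panels, and the epithelial markers hold no call.

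Close relatives of the members showed few calls. Of all genes 2.11% passed in 15lox/15lox, 2.04% in 15lox/1638N and 0.0495% in 15lox/1572T. Of 8 genes of the Lgr, R-spondin and E3 ligase group 1 rose in 15lox/15lox and 1 in 15lox/1638N, Znrf3 both times. Rnf43, its paralogue, was 1.89 higher in 15lox/15lox and missed the threshold (adjusted p = 0.0626), though it passed in 12 alternative settings (adjusted p from 0.00259 to 0.0479). Some of these passes, the lowest among them, came in fits that use the doubted wild-type arrays described above and support nothing. Of the other settings, array weights gave the lowest adjusted p, 0.0153. Lgr4, the broadly expressed relative of Lgr5, differed from wild type by 0.07 in 15lox/15lox, 0.46 in 15lox/1638N and 0.21 in 15lox/1572T, and Lgr6 by -0.23, -0.24 and 0.07, with adjusted p-values of 0.358 or more. The second Lgr4 probe set differed by -0.02 to 0.02.

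None of 20 Eph receptors and ephrins passed in any comparison with wild type. In each, 2 of 20 had an unadjusted p under 0.05, against 10.2% (15lox/15lox), 16% (15lox/1638N) and 6.84% (15lox/1572T) of all probe sets. Ephb6, a kinase-dead receptor, came nearest, at -0.72 in 15lox/15lox, -1.06 in 15lox/1638N and -0.70 in 15lox/1572T (adjusted p = 0.331, 0.0787 and 0.632). Ephb1 and Ephb4 differed by -0.28 to 0.10, and the ligands Efnb1, Efnb2 and Efnb3 by -0.13 to 0.49. None of 18 Sox genes passed either. At an unadjusted p under 0.05 stood 5 in 15lox/15lox, 3 in 15lox/1638N and 0 in 15lox/1572T, beside the same shares of all probe sets. Sox13, named after its values were seen, passed in 15lox/15lox in 5 alternative settings (adjusted p from 0.0102 to 0.0472). The lowest came with all 6 wild-type arrays, a pass that supports nothing, and the lowest of the other settings was 0.0346. Sox4, a factor of blood progenitors that read 11.90 in wild type, was 0.49 higher in 15lox/15lox and 0.54 higher in 15lox/1638N without passing (adjusted p = 0.276 and 0.144). Of 6 measured Sp family relatives, Sp7, the osteoblast factor, fell in 15lox/15lox (-1.01, adjusted p = 0.0204) and in 15lox/1638N (-0.99, adjusted p = 0.0297). The 15lox/15lox call was lost without 15lox/15lox array 2 or 3 or wild-type array 5, and the 15lox/1638N call without any 1 of the 15lox/1638N arrays or without wild-type array 4 or 5. Sp8, which acts with Sp5 in the embryo, was 0.23 higher in 15lox/15lox (adjusted p = 0.352).

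No marker of the epithelial or endothelial cells that normally express the members passed the test. This held for 19 markers of intestinal and other epithelium, 11 of endothelium and also 10 of stroma in each comparison with wild type. Of them 3, 2 and 2 had an unadjusted p under 0.05 in 15lox/15lox, 2, 2 and 2 in 15lox/1638N and 2, 0 and 1 in 15lox/1572T. Of all probe sets 10.2%, 16% and 6.84% did so in these 3 comparisons. The mean level of the 19 epithelial markers was 6.48 to 6.62 in 15lox/15lox, 6.47 to 6.58 in 15lox/1638N and 6.47 to 6.58 in 15lox/1572T, against 6.57 to 6.62 in wild type. In mature blood lineages 1 of 4 T cell markers fell and 1 of 6 monocyte and neutrophil markers rose in each of the 3 mutant genotypes, 1 of 4 B cell markers fell in 15lox/15lox and in 15lox/1638N, and 1 of 5 plasmacytoid dendritic cell markers fell in 15lox/1638N. Of all genes 2.11%, 2.04% and 0.0495% passed in 15lox/15lox, 15lox/1638N and 15lox/1572T. The part of these lineages in the values of Sp5 and Lgr5 was not tested. Of the nearest measured protein-coding genes beside Sp5 and Lgr5 on the chromosome, up to the second on either side, none passed in any comparison with wild type. Those of Sp5 (Ubr3, Myo3b, Erich2 and Gad1) differed by -0.15 to 0.10 in 15lox/15lox.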

How the data were processed

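Per the labels' protocols, RNA of more than 10000 sorted cells per sample was amplified with Nugen Ovation V2 and biotin labelled. The deposited table holds log2 probe set values, as read from their range, and the submitters' processing notes name RMA and mm9 without a role or version; the sources used here give no background correction or filter. The platform annotation listed 34958 of 45101 probe sets with 1 symbol, 932 with several and did not list 9211.

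All probe sets of 12 arrays (wild type 4 to 6 and 3 of each mutant group) entered 1 model (limma 3.58.1, R 4.3.3; lmFit and eBayes, 8 residual degrees of freedom, no filter, no further normalization). Tests were two-sided, with Benjamini-Hochberg adjustment over all 45101 probe sets in each of 6 contrasts; list genes were counted by their brightest probe set (18194 genes). The script was tested on simulated data. Deviations of same-numbered 15lox/15lox and 15lox/1572T arrays correlated at 0.14 to 0.21, so the blocked value is given for that contrast. For the other mutant contrasts it is given for the genes flagged in the closing section. The labels give no pairing, and arrays of different numbers were not correlated, so these correlations do not show one. Same-numbered 15lox/15lox and 15lox/1572T arrays were of opposite sex type at all 3 numbers. The number of arrays limits the precision. Members, lists and tests were chosen with earlier results of these data known. Named list genes are the relatives of members and up to 4 called genes of largest change per list and comparison with wild type; others named are said to be chosen later or stand in the closing section because they differed between mutant groups. Alternatives covered the control arrays, filters, quantile normalization, eBayes options, array weights, 2-group fits, sex type, replicate block, probe set summaries and each array left out.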

Additional observations from a re-analysis of the deposited data

Results flagged for a closer look

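Effects against wild type differed between mutant genotypes, by limma's test of the difference, for Sp5 and for other Wnt genes named because of this test. Between 15lox/15lox and 15lox/1572T, Sp5 differed by 1.40 (adjusted p = 0.172 with the replicate block). The same contrast gave 14 genes of the lists of Wnt targets and relatives, each read on its brightest probe set. Of all probe sets 1% passed. The 14 were 8 of 16 feedback genes, 6 of 27 gut and crypt genes and 1 of 28 embryonic targets, with Tnfrsf19 in 2 lists. All were higher in 15lox/15lox: Lef1 by 4.25, Axin2 by 3.56, Fstl1 by 3.44, Mixl1 by 3.33, Pdgfa by 2.99 and Apcdd1 by 2.97. Smaller differences were those of Tnfrsf19 (2.44), Nkd1 (2.27), Wif1 (1.83), Notum (1.80), Zfp703 (1.18), Etv5 (1.09), Wnt11 (0.83) and Ets2 (0.41). Outside these lists, 1 of 4 measured B cell markers was lower in 15lox/15lox. With 1 of the 12 arrays left out, the call of Ets2 was lost in 11 of 12 fits, that of Etv5 in 6, Wnt11 in 5 and Notum in 4, and with the replicate block those of Ets2, Etv5 and Notum were lost (adjusted p = 0.201, 0.189 and 0.154). Between 15lox/15lox and 15lox/1638N 0.186% of all probe sets passed. Of these lists 3 genes, all among the 16 feedback genes, were higher in 15lox/15lox. They were Tnfrsf19 by 1.76, Wif1 by 1.61 and Nkd1 by 1.41, while 1 of 6 measured monocyte and neutrophil markers was lower. The call of Nkd1 was lost without 15lox/15lox array 1 or 15lox/1638N array 2, and that of Wif1 without 15lox/1638N array 2. With the replicate block that of Tnfrsf19 was lost (adjusted p = 0.0607), and those of Wif1 and Nkd1 held (adjusted p = 0.0476 for each). Between 15lox/1638N and 15lox/1572T 0.171% of all probe sets passed. Of these lists 4 genes were higher in 15lox/1638N, 3 of the 16 feedback genes and 1 of the 28 embryonic targets. They were Lef1 by 4.23, Axin2 by 2.65, Apcdd1 by 2.06 and Mixl1 by 1.99. The call of Mixl1 was lost in 6 of 12 fits, without wild-type array 4, any 15lox/1572T array, or 15lox/1638N array 2 or 3. With the replicate block those of Axin2 and Mixl1 were lost (adjusted p = 0.0709 and 0.153). Those of Lef1 and Apcdd1 held (adjusted p = 0.0406 and 0.0066).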

How the results depend on the processing

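Over 23 alternative settings, 1653 of 1686 member values kept their direction where called and their side of the threshold. Of the rest 26 lost a call and 7 gained one, and 0 called values changed sign. Most of the 1686 were never called, so this share says little about the calls. In 15lox/15lox the Sp5 call passed in 11 of 23 settings against wild type and in 16 of 23 against 15lox/1572T. The Lgr5 1444519_at call in 15lox/1638N passed in 15 of 22. Some of these passes use the doubted wild-type arrays 1 to 3. The count of member probe sets past the threshold in 15lox/15lox against wild type was 2 with all 6 wild-type arrays, 0 in a fit of the 2 groups alone, 0 with sex type as a covariate, 0 with the replicate block, and 0 to 2 with 1 array left out. In 15lox/1638N against wild type it was 0 with the filter on the highest group mean, which tests 2 members only, and 0 to 1 with 1 array left out. Between 15lox/15lox and 15lox/1638N it was 1 with all 6 wild-type arrays, 1 with wild type 1 to 3 as their own group, 1 with array weights, and 0 to 1 with 1 array left out. Between 15lox/15lox and 15lox/1572T it was 0 in the 2-group fit and 0 with the replicate block, and 0 to 1 with 1 array left out. The cause of these changes was not tested. Some of these fits use fewer arrays or probe sets, and others use as many or more. The filter on the mean, above 6.76, left 0 members to test.

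With the replicate block Sp5 in 15lox/15lox differed by 1.30 (adjusted p = 0.0650). For comparisons with wild type this fit uses all 15 arrays, since wild type 4 to 6 share no number with the mutant groups. Same-numbered arrays of 15lox/15lox and 15lox/1638N (0.08 to 0.38) and of 15lox/1638N and 15lox/1572T (-0.07 to 0.31) did not all correlate above 0.1. Over all alternatives the counts over all probe sets ran from 346 to 1951 in 15lox/15lox (main 674), 159 to 3912 in 15lox/1638N (main 623), and 1 to 283 in 15lox/1572T (main 13). Among relatives, Ephb6 in 15lox/1638N passed with all 6 wild-type arrays (-1.04, adjusted p = 0.0102), array weights, a fit of the 2 groups alone, the replicate block (-1.01, adjusted p = 0.0121), 1 probe set per gene, the mean of a gene's probe sets, and without 15lox/15lox array 3. Rnf43 (12 settings) and Sox13 (5 settings) passed in 15lox/15lox likewise. Some of these passes came with all 6 wild-type arrays, with wild type 1 to 3 as their own group or with the replicate block. Those use the doubted wild-type arrays 1 to 3 and support nothing. No background was measured, so how far low levels limit the members was not tested.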

Other observations

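Among the genes up to the second on either side of each member, 1 passed the test against wild type. It was 2510009E07Rik, the second gene from Ephb3, which rose by 1.13 in 15lox/15lox (adjusted p = 0.0422). Its call was lost without wild-type array 4, 5 or 6, 15lox/15lox array 2 or 3, 15lox/1572T array 2, or 15lox/1638N array 1 or 3. Ephb3 itself differed by -0.49 in the same comparison and did not pass.

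Other members of the Wnt feedback list that rose in 15lox/15lox, and whose calls held with each of the 12 arrays left out, were Apcdd1, a membrane-bound Wnt inhibitor (3.05), Nkd1, an inhibitor that binds Dishevelled (2.39), Wif1, a secreted Wnt-binding inhibitor (1.89), and Wnt11, a Wnt ligand (0.99). Apcdd1 rose by 2.14 in 15lox/1638N as well, and Nkd1 by 0.98, a call lost when 15lox/1638N array 2 or any of the 3 wild-type arrays was left out. These Nkd1 values are those of its brightest probe set. The others rose by 4.95, 3.54 and 0.85 in 15lox/15lox (adjusted p = 3.6e-06, 1.9e-05 and 0.0033). In 15lox/1638N the same probe sets differed by 2.35, 1.78 and 0.05, and the last did not pass (adjusted p = 0.00096, 0.0051 and 0.870). Only the brightest was followed with arrays left out. Notum, the secreted enzyme that inactivates Wnt proteins, rose by 1.69 in 15lox/15lox (adjusted p = 0.0223), a call lost without wild-type array 4, 5 or 6 or 15lox/15lox array 1 or 2.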
